A study of Mus musculus with 12 samples.

Results

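The light/dark box (LD) places a mouse between a dark chamber and a brightly lit chamber, and the share of its path that lies in the light is read as a measure of bright-space avoidance. Amygdala mRNA of C57/BL6 mice that travelled little in the light is compared here with that of mice that travelled more. Of the 12 mice sequenced, 11 were used, and they were placed by the percent distance in light given in their labels. The 5 mice under 27% (mice 2, 4, 8, 9 and 10) are called low mice, and the 6 mice over 27% (mice 1, 3, 6, 7, 11 and 12) are called high mice. Mouse 5, with 16.6% of its distance in the light, was left out of the groups, as the study set its library aside as an outlier.

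All 11 mice were untreated, age-matched females of an inbred strain, each tested in the elevated plus maze (EPM), then the LD and then the social interaction test (SIT) at weekly intervals. Each library came from the pooled left and right amygdala of a single mouse, removed after rapid decapitation as a vibratome-sliced biopsy, so that every nucleus and cell type in the biopsy contributed to the RNA. Individual differences among genetically alike mice, and no treatment, therefore set the groups apart. The distances of the low mice were 16.6% in mouse 2, 19.3% in mouse 9, 25.0% in mouse 8, 26.1% in mouse 10 and 26.4% in mouse 4. Those of the high mice were 27.6% in mouse 7, 29.2% in mouse 11, 34.5% in mouse 12, 37.3% in mouse 1, 37.8% in mouse 3 and 41.9% in mouse 6. Mice 4 and 7 lay nearest to the limit on either side. The study predicted an anxiety state for each mouse from tertiles of a principal component of its expression data. The low mice held 2 anxious and 3 more anxious mice, whereas the high mice held 3 less anxious, 2 anxious and 1 more anxious mouse. No less anxious mouse travelled under the limit, so the distance grouping overlaps with the grouping by predicted state. The state also came from these same expression data, so fits below with the state as a factor cannot tell state and distance apart.

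The amygdala assigns threat and reward value to sensory events. Its basolateral part consists mainly of glutamatergic principal neurons that resemble cortical pyramidal cells, while the central nucleus and the intercalated cell clusters are made of GABAergic neurons that resemble those of the striatum. Many of the GABAergic neurons also release opioid peptides. Prodynorphin (Pdyn) yields dynorphins, which act on the kappa receptor (Oprk1), and proenkephalin (Penk) yields enkephalins, which act mainly on the delta (Oprd1) and mu (Oprm1) receptors. Immediate early genes such as Fos, Jun, Egr4 and Nr4a2 are transcribed within minutes of neuronal activity, in part through the cAMP response element (CRE) that the factor CREB binds.

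Behavior outside the grouping measure was compared first. The percent of time in the light, from the same LD session, was 14.5, 22.7, 18.1, 12.4 and 20.9 in low mice 2, 4, 8, 9 and 10, and ran from 21.3 to 46.6 around a median of 29.1 in the high mice. Only low mouse 4 (22.7%) spent more time there than high mouse 11 (21.3%). The group means were 17.7% ± 4.30 (SD, n = 5) and 30.8% ± 9.07 (SD, n = 6), with a two-sided exact permutation p of 0.0108 and an adjusted p of 0.0649 over 6 measures. In the EPM, open-arm time was 2.33%, 16.8%, 14.7%, 4.30% and 3.25% in low mice 2, 4, 8, 9 and 10, against 6.73% to 29.2% with a median of 22.3% in the high mice. High mouse 1 (6.73%) lay below low mice 4 and 8, and the difference of −12.1 percentage points had an exact permutation p of 0.0325 (adjusted p = 0.0974), which was above 0.05 before adjustment without mouse 2, 6, 9 or 10. Neither measure passed 0.05 after adjustment, and the smallest p that 5 against 6 mice can give is 0.004329.

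Total EPM entries, which reflect general activity, averaged 22.6 ± 10.0 in the low mice and 30.2 ± 9.06 in the high mice (exact permutation p = 0.232, adjusted p = 0.347). In the SIT, the box:zone ratio sets the time in direct contact with a stranger mouse against the time spent near it. At 3 min the ratio averaged 1.31 ± 0.443 in 4 low mice, mouse 4 having no value, and 0.893 ± 0.479 in the high mice (exact permutation p = 0.205, adjusted p = 0.347). At 5 min the means were 1.13 ± 0.470 and 1.12 ± 0.518 (exact permutation p = 0.989), and at 10 min 1.08 ± 0.4996 and 1.22 ± 0.736 (exact permutation p = 0.779, adjusted p = 0.935). High mouse 3 had the highest ratio of the 11 mice at 5 min (2.12) and at 10 min (2.62). The low and high mice overlapped in all 6 measures.

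**Figure D1:**
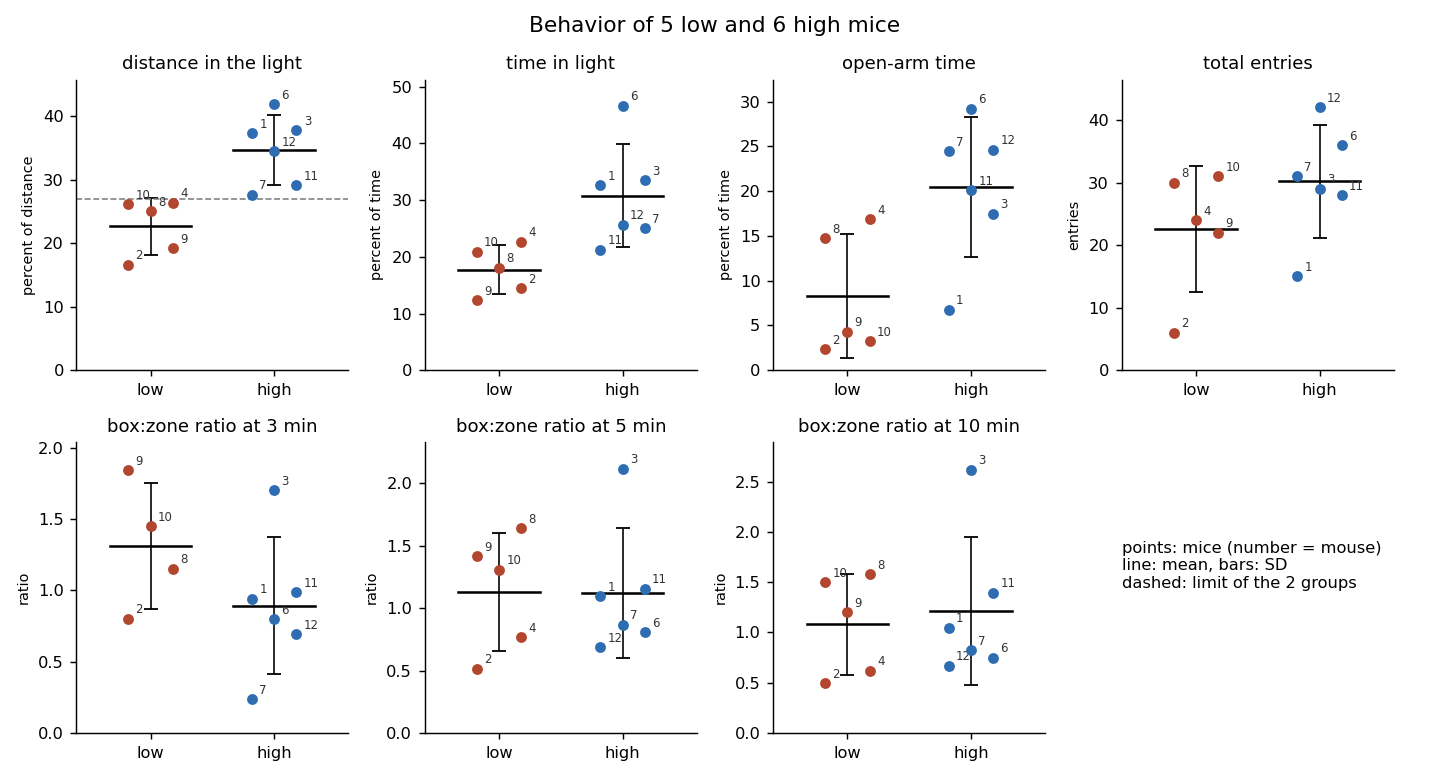
Behavior of the 5 low and 6 high mice, with a panel per measure and its unit on the y axis. Points are mice with their numbers, lines are means and bars are SD, and the dashed line is the 27% limit. Time in the light overlaps only through mice 4 and 11, open-arm time only through mice 1, 4 and 8, and the social ratios overlap widely.

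The libraries held 36.4 to 45.1 M estimated counts in the low mice and 31.7 to 40.1 M in the high mice (exact permutation p = 0.0866, adjusted p = 0.346 over 24 library and marker measures). The first 5 principal components of the variance-stabilized counts carried 19.9%, 14.6%, 12.8%, 10.6% and 8.90% of the variance. None of their scores separated the groups, PC2 coming nearest with a difference of 15.6 (exact permutation p = 0.0866, adjusted p = 0.263). Glutamatergic, GABAergic, astrocyte, oligodendrocyte and microglial markers were found in every library.

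Across the transcriptome, edgeR's quasi-likelihood test called 0 of 26963 genes at an adjusted p under 0.05 (0%), the smallest adjusted p being 0.233. At an unadjusted p under 0.05 there were 2403 genes (8.91%), of which 1240 (4.6%) were higher and 1163 (4.31%) lower in the low mice. In 293 genes (1.09%) no low mouse overlapped with any high mouse, 130 of them (0.482%) higher and 163 (0.605%) lower in the low mice. DESeq2's Wald test called 161 of the 15099 genes to which it gave an adjusted p (1.07%), with 53 higher (0.351%) and 108 lower (0.715%) in the low mice. All 161 had an unadjusted edgeR p under 0.05 and 97 did not overlap between the groups. Since edgeR made no call, the genes below are given by their values and not as changed genes. "Lower" and "higher" always refer to the low mice relative to the high mice.

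Base composition moved with the direction of the difference. The genes higher at an unadjusted p under 0.05 had a median GC content of 54.6% and a median transcript of 1895 bases, and those lower had 46.3% and 4383 bases, against 48.7% and 2490 bases over all genes tested. With a GC offset in the edgeR fit, 1015 genes were higher and 1178 lower at that threshold. Whether base composition or length had a part in any single gene's difference was not tested beyond that offset.

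Genes of the opioid system showed the largest median difference among the 21 gene lists plotted for the pathways, and all of it in the lower direction. All 8 opioid peptide and receptor genes tested had lower estimates in the low mice, with a median log2 fold change of −0.65 against 0.00 over all genes tested. Unadjusted edgeR p-values were under 0.05 for 4 of the 8 (Pdyn, Penk, Oprd1 and Oprk1), where 4.31% of all genes were lower at that threshold. In bulk tissue, fewer cells of a type and less RNA per cell cannot be told apart, here and in every result that follows.

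Pdyn (2:129686565-129699844, minus strand, GRCm38), the dynorphin precursor, had 8.58, 22.9, 12.3, 23.8 and 19.4 counts scaled by library size and TMM factor (CPM) in low mice 2, 4, 8, 9 and 10. The high mice ran from 29.1 to 67.9 CPM with a median of 36.5. Every low mouse was thus below every high mouse, with mice 12 and 7 farthest above. The log2 fold change was −1.36 ± 0.33 (SE) with an edgeR adjusted p of 0.402, which ran from 0.223 to 1 over 24 other edgeR fits. DESeq2 gave an adjusted p of 0.0016. With the distance entered as a number, the estimate was −0.67 per 10 percentage points less distance, with an unadjusted p over 0.05.

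Oprd1 (4:132110726-132144486, minus strand), which encodes the delta receptor for enkephalins, had 2.87, 3.50, 3.36, 3.21 and 2.81 CPM in low mice 2, 4, 8, 9 and 10 and 4.04 to 7.22 CPM with a median of 4.57 in the high mice. Those values did not overlap either, and they were more even within the low mice (SD 0.301) than within the high mice (SD 1.19). Its log2 fold change was −0.65 ± 0.16 (SE), with an edgeR adjusted p of 0.402 that ran from 0.187 to 1 over the other edgeR fits, and a DESeq2 adjusted p of 0.024.

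Oprk1 (1:5588466-5606131, plus strand), the dynorphin receptor, had 6.90 to 12.8 CPM with a median of 8.24 in the low mice and 10.1 to 19.8 CPM with a median of 14.5 in the high mice. Low mice 4 and 9 overlapped with high mice 6 and 11, and the log2 fold change was −0.65 ± 0.21 (edgeR adjusted p = 0.433). Penk had 223, 195, 167, 278 and 204 CPM in the low mice and 155 to 554 CPM with a median of 402 in the high mice, where mice 3 and 11 lay at the level of the low mice. Its log2 fold change was −0.76 ± 0.32 (edgeR adjusted p = 0.529), and −0.24, with an unadjusted p over 0.05, once the summed striatal markers entered the fit. Penk falls outside the rule for named genes and is given because it is the enkephalin precursor.

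The mu receptor gene Oprm1 had 0.261 to 2.18 CPM in the low mice and 0.459 to 3.60 CPM in the high mice, with a log2 fold change of −1.40 ± 0.67 (edgeR adjusted p = 0.586). The nociceptin receptor gene Oprl1 (−0.23, edgeR adjusted p = 0.622) and its ligand gene Pnoc (−0.05, edgeR adjusted p = 0.953) differed less. Leaving out each mouse in turn left 3 to 5 of the 8 genes of the opioid peptides and receptors at an unadjusted p under 0.05, all lower. There were 3 with the predicted anxiety state as a factor and 1 with distance as a number.

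The sequences just before the transcript starts are shown for 2 opioid genes, the GABA-synthesis gene Gad2, the neuropeptide gene Cck and 2 immediate early genes, since these are the members on which the lists below turn. Each line gives 250 bases that end just before the RefSeq start (GRCm38.p6), 5′ to 3′ on the strand of the gene, with TGACG or its reverse complement CGTCA, the core of the CRE, in capitals.
Pdyn: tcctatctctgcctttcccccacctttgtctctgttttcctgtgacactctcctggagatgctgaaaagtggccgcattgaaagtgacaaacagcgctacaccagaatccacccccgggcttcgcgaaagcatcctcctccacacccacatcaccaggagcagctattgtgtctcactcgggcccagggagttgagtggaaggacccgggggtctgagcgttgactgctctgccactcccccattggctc
Oprd1: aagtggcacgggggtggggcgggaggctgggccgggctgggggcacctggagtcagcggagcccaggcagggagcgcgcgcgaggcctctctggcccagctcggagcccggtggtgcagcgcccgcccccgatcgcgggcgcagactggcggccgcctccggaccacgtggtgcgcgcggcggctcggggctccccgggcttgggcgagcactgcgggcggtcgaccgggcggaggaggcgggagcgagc
Gad2: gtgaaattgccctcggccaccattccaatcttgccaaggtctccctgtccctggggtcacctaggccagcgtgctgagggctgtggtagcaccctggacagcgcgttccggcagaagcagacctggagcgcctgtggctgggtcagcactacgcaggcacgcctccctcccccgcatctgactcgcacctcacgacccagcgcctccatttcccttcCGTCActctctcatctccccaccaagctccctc
Cck: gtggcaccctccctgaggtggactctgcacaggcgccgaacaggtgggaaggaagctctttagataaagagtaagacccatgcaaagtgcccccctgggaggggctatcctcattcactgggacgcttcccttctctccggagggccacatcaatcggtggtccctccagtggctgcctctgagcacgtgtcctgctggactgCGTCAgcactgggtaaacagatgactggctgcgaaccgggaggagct
Nr4a2: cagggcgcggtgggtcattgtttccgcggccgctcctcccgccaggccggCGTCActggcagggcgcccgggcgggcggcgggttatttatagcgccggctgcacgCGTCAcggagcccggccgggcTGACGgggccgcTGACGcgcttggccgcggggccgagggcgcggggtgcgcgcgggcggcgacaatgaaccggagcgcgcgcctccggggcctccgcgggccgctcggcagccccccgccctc
Egr4: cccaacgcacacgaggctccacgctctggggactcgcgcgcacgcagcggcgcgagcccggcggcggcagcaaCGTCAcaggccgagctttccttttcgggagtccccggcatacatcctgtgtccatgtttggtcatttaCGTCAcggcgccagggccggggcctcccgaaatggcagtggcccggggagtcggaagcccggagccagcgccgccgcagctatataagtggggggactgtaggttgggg

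These windows are 2:129699939-129700188 (Pdyn, minus strand), 4:132144487-132144736 (Oprd1, minus strand), 2:22622077-22622326 (Gad2, plus strand), 9:121495695-121495944 (Cck, minus strand), 2:57124004-57124253 (Nr4a2, minus strand) and 6:85513590-85513839 (Egr4, minus strand). The window of Nr4a2 holds 4 copies of the core, whose first bases lie 200, 144, 123 and 111 bases before the start, and that of Egr4 holds 2, at 177 and 109 bases. Gad2 has 1 copy at 33 bases and Cck 1 at 47 bases, while those of Pdyn and Oprd1 have none. Over all 27025 genes in the RefSeq table, 4827 windows (17.9%) hold the core on either strand, as do 11 of the 16 immediate early genes with an entry (68.8%) and 0 of the 5 opioid genes with an entry. Penk, Pnoc and Oprk1 had no entry, nor did Fosl1, Egr1, Egr3, Arc and Ier2. With only 5 opioid genes, a count of 0 cannot be told apart from the share over all genes. Pdyn has 2 entries, of which the first is shown and counted. The full palindrome TGACGTCA, which contains the core on both strands, stands in 439 windows (1.62%) and in 2 of the 16 immediate early genes. A match here is only a description of these letters.

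GABA is the main inhibitory transmitter of the amygdala. It is made from glutamate by GAD67 (Gad1) and GAD65 (Gad2), loaded into vesicles by Slc32a1 and broken down by the transaminase Abat. Of 8 genes for GABA synthesis, transport and GABA-B receptors, 6 had lower estimates, 3 of them (Gad2, Gad1 and Abat) at an unadjusted edgeR p under 0.05, where 4.31% of all genes were lower, and the median log2 fold change was −0.22. Gad2 had 192, 170, 157, 153 and 159 CPM in low mice 2, 4, 8, 9 and 10 and 174 to 302 CPM with a median of 228 in the high mice, overlapping only through low mouse 2 and high mouse 11. Its log2 fold change was −0.48 ± 0.12 (SE, edgeR adjusted p = 0.402). The adjusted p ran from 0.223 to 1 over the other edgeR fits and was 0.044 by DESeq2. Its unadjusted edgeR p stayed under 0.05 in all 24 of those fits, as was so for 23 of the 106 genes named by rule.

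Gad1 had 310, 316, 345, 300 and 283 CPM in the low mice and 325 to 420 CPM with a median of 352 in the high mice (log2 fold change −0.23 ± 0.09, edgeR adjusted p = 0.506). Abat had 258, 227, 250, 258 and 232 CPM in the low mice and 274 to 322 CPM with a median of 278 in the high mice. Abat thus had no overlap between the groups, at a log2 fold change of −0.25 ± 0.08 (edgeR adjusted p = 0.412). Among the inhibitory neuron markers, Dlx6os1, an antisense RNA of the interneuron gene Dlx6, also had no overlap, with 12.0 to 13.9 CPM in the low mice and 14.3 to 20.3 CPM in the high mice (−0.39 ± 0.10, edgeR adjusted p = 0.402). Dlx6os1 overlaps Dlx6 on the opposite strand, and no source used here states that the counting used the strand. The vesicular transporter gene Slc32a1 (−0.31 ± 0.15, edgeR adjusted p = 0.58) was lower without passing that threshold.

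GABA-A receptors are pentameric chloride channels built mostly of alpha, beta and gamma subunits. Of 13 subunit genes tested, 12 had lower estimates, 6 of them at an unadjusted edgeR p under 0.05 against 4.31% of all genes, with a median log2 fold change of −0.19. Those 6 included the beta subunits Gabrb1 and Gabrb2, the gamma subunits Gabrg1 and Gabrg3 and the epsilon subunit Gabre. Gabrg1 had 42.6, 41.4, 33.8, 35.0 and 36.6 CPM in low mice 2, 4, 8, 9 and 10 and 41.2 to 74.7 CPM with a median of 54.2 in the high mice (−0.55 ± 0.15, edgeR adjusted p = 0.402). Gabrb2 had 35.6, 39.4, 40.8, 47.0 and 52.1 CPM in the low mice and 50.5 to 59.3 CPM with a median of 54.9 in the high mice (−0.35 ± 0.09, edgeR adjusted p = 0.402). In both genes the overlap was slight, and in Gabrb2 it came from low mouse 10.

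The subunit genes Gabrg3 (−0.37 ± 0.11, edgeR adjusted p = 0.402), Gabrb1 (−0.22 ± 0.09, edgeR adjusted p = 0.509) and the low-level Gabre (−0.93 ± 0.36, edgeR adjusted p = 0.504) overlapped between the groups, and Gabrb1 overlaps the opposite-strand gene Gabra4. The alpha subunit gene Gabra2 (0.02 ± 0.11, edgeR adjusted p = 0.988) lay close to the median of all genes. Leaving out each mouse in turn left 4 to 7 of the GABA-A receptor subunits and 2 to 4 of the other GABA genes at an unadjusted p under 0.05. The GABA-A genes had a median GC content of 42.2%, and 5 of them were lower at that threshold with a GC offset.

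**Figure D2:**
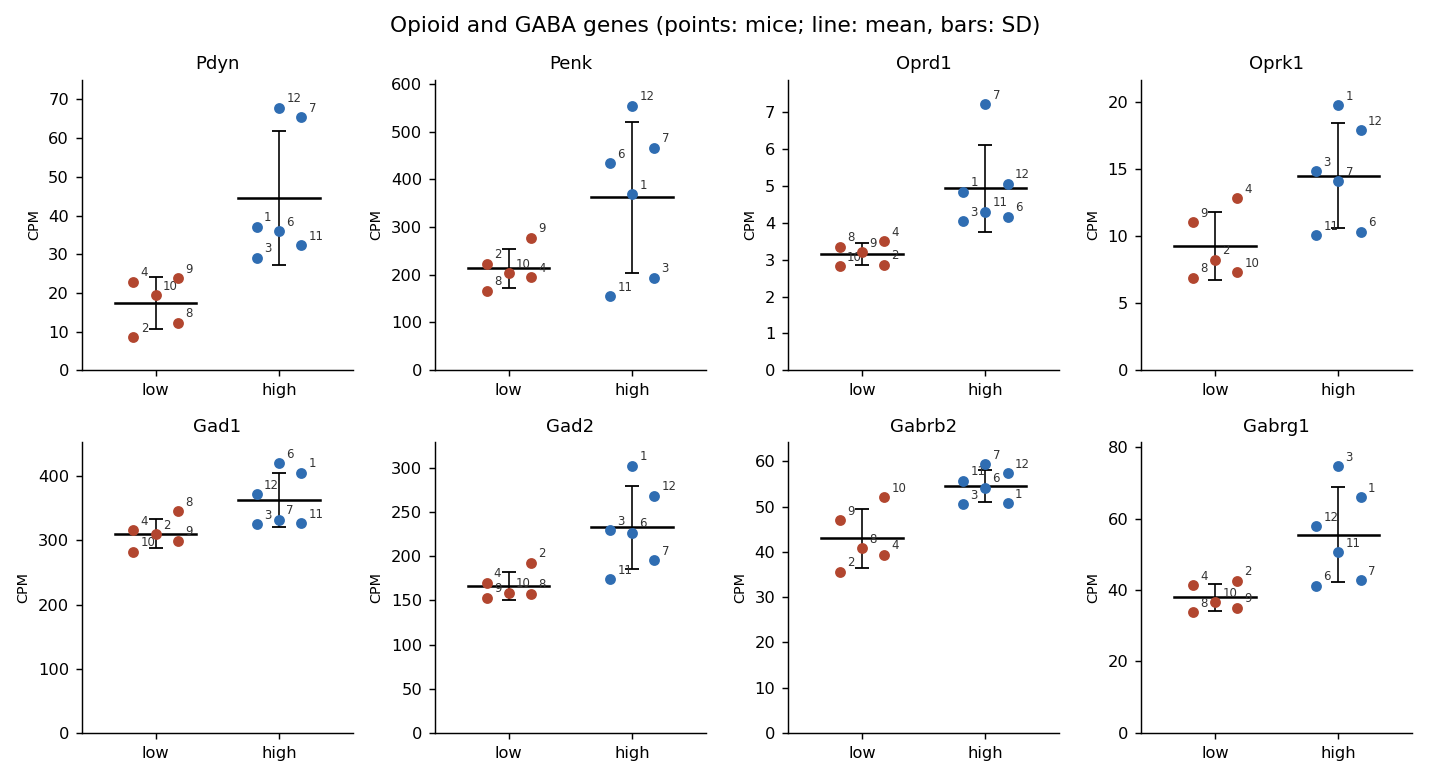
CPM (y axis, from 0) of 4 opioid genes and 4 GABA genes in the low and high mice. Points are mice with their numbers, lines are means and bars are SD. Pdyn and Oprd1 do not overlap between the groups, Gad2 overlaps only through mice 2 and 11, and mice 12 and 7 are highest for Pdyn.

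Markers of glutamatergic neurons were mixed. Of 6 excitatory neuron markers, 5 had higher estimates and 2 were higher at an unadjusted edgeR p under 0.05, where 4.6% of all genes were, with a median log2 fold change of 0.26. All 3 basolateral amygdala markers had lower estimates, 0 of them under that threshold by edgeR and 0 called by DESeq2, with a median of −0.17. Cck (9:121489824-121495694, minus strand), the cholecystokinin precursor made by many pyramidal-type cells and by a class of interneurons, had 234, 189, 182, 315 and 198 CPM in low mice 2, 4, 8, 9 and 10. The high mice had 99.0 to 177 CPM with a median of 151. No low mouse overlapped with a high mouse, and the log2 fold change was 0.66 ± 0.16 (SE, edgeR adjusted p = 0.402). The adjusted p ran from 0.173 to 1 over the other edgeR fits and was 0.032 by DESeq2. Neurod2, a transcription factor of cortical-type excitatory neurons, had 53.1, 53.4, 61.1, 51.2 and 53.4 CPM in the low mice and 24.4 to 48.7 CPM with a median of 38.1 in the high mice, again without overlap (0.57 ± 0.16, edgeR adjusted p = 0.408).

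Nrgn, a calmodulin-binding protein of excitatory synapses, had 1127, 1017, 1177, 1266 and 893 CPM in the low mice and 378 to 1044 CPM with a median of 745 in the high mice (0.62 ± 0.20, edgeR adjusted p = 0.439). Nxph3, a neurexin ligand, had 21.7, 5.49, 8.80, 15.4 and 9.14 CPM in the low mice and 4.59 to 7.61 CPM in the high mice (0.997 ± 0.29, edgeR adjusted p = 0.425), with low mouse 4 inside the range of the high mice. Other glutamatergic markers differed less, among them the vesicular glutamate transporter genes Slc17a7 (0.27 ± 0.14, edgeR adjusted p = 0.624) and Slc17a6 (−0.11 ± 0.22, edgeR adjusted p = 0.933) and the factor gene Tbr1 (0.25 ± 0.22, edgeR adjusted p = 0.808). Camk2a, an abundant kinase of excitatory synapses, had a log2 fold change of −0.01 ± 0.11. Among 18 synaptic scaffold, adhesion and plasticity genes, Nrgn and Nxph3 were higher and the BDNF receptor gene Ntrk2 (−0.21 ± 0.08, edgeR adjusted p = 0.504) lower at an unadjusted p under 0.05.

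The remaining neuropeptides were mixed. Of 13 tested, Cck and Cort (cortistatin, 0.60 ± 0.25, edgeR adjusted p = 0.509) were higher and Tac1 (the substance P precursor, −0.49 ± 0.20, edgeR adjusted p = 0.523) lower at an unadjusted p under 0.05, and the median log2 fold change was 0.02. Npy (0.02 ± 0.16) and Sst (0.33 ± 0.21, edgeR adjusted p = 0.701), peptides of interneurons, did not pass that threshold. Of 11 AMPA and NMDA receptor subunits, only Grin2b was under it (−0.36 ± 0.15, edgeR adjusted p = 0.524). Grin2b had 259 to 268 CPM in the low mice and 255 to 532 CPM in the high mice, of which mouse 6 was the highest. Gria2, the AMPA subunit that limits calcium entry, had 618, 602, 588, 608 and 623 CPM in the low mice and 627 to 710 CPM in the high mice, without overlap at a log2 fold change of only −0.14 ± 0.07 (edgeR adjusted p = 0.586).

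Immediate early genes tended to the higher side. Of 21 tested, 19 had higher estimates, with a median log2 fold change of 0.42, and 6 were higher at an unadjusted edgeR p under 0.05 (Jun, Nr4a2, Jund, Egr4, Egr2 and Junb), where 4.6% of all genes were. None of the 21 was without overlap and none was called by DESeq2. Nr4a2 (2:57106830-57124003, minus strand), an orphan nuclear receptor whose window holds 4 copies of the CRE core, had 125, 82.7, 24.8, 35.2 and 34.5 CPM in low mice 2, 4, 8, 9 and 10. Its high mice had 6.97 to 33.7 CPM with a median of 13.2, so that low mice 2 and 4 were far above all others and only low mouse 8 overlapped with high mouse 7. The log2 fold change was 1.88 ± 0.57 (SE, edgeR adjusted p = 0.436), and 1.51 per 10 percentage points less distance, with an unadjusted p under 0.05.

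Egr4 (6:85511121-85513589, minus strand), a zinc-finger factor, had 22.0, 19.5, 17.8, 22.1 and 20.3 CPM in the low mice and 5.04 to 19.5 CPM with a median of 11.2 in the high mice (0.75 ± 0.28, edgeR adjusted p = 0.502). Jun, a subunit of the AP-1 factor, had 67.2, 72.0, 57.0, 56.2 and 68.3 CPM in the low mice and 32.0 to 60.4 CPM with a median of 45.0 in the high mice (0.51 ± 0.15, edgeR adjusted p = 0.408). The low mice thus held a narrow band at the top of both genes, and high mouse 6 reached it in both. Jund (0.72 ± 0.24, edgeR adjusted p = 0.459), Junb (0.76 ± 0.32, edgeR adjusted p = 0.536) and Egr2 (0.97 ± 0.36, edgeR adjusted p = 0.502) were the other 3 under that threshold.

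Other immediate early genes were not under the threshold. Fos had 36.6, 31.3, 35.8, 7.12 and 43.0 CPM in the low mice and 4.26 to 32.2 CPM in the high mice (0.58 ± 0.51, edgeR adjusted p = 0.81), low mouse 9 being far below the other low mice. Arc (0.42 ± 0.48, edgeR adjusted p = 0.866), Egr1 (0.30 ± 0.17, edgeR adjusted p = 0.64) and Npas4 (0.01 ± 0.24, edgeR adjusted p = 0.994) overlapped widely. The count of immediate early genes under an unadjusted p of 0.05 depended on single mice, being 11 without mouse 9, 10 without mouse 7 and 4 without mouse 4 or mouse 10. It was 0 with the predicted anxiety state as a factor, where the count over all genes also fell, from 2403 to 859. With a GC offset it was 4, the median GC content of these genes being 55.5%.

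**Figure D3:**
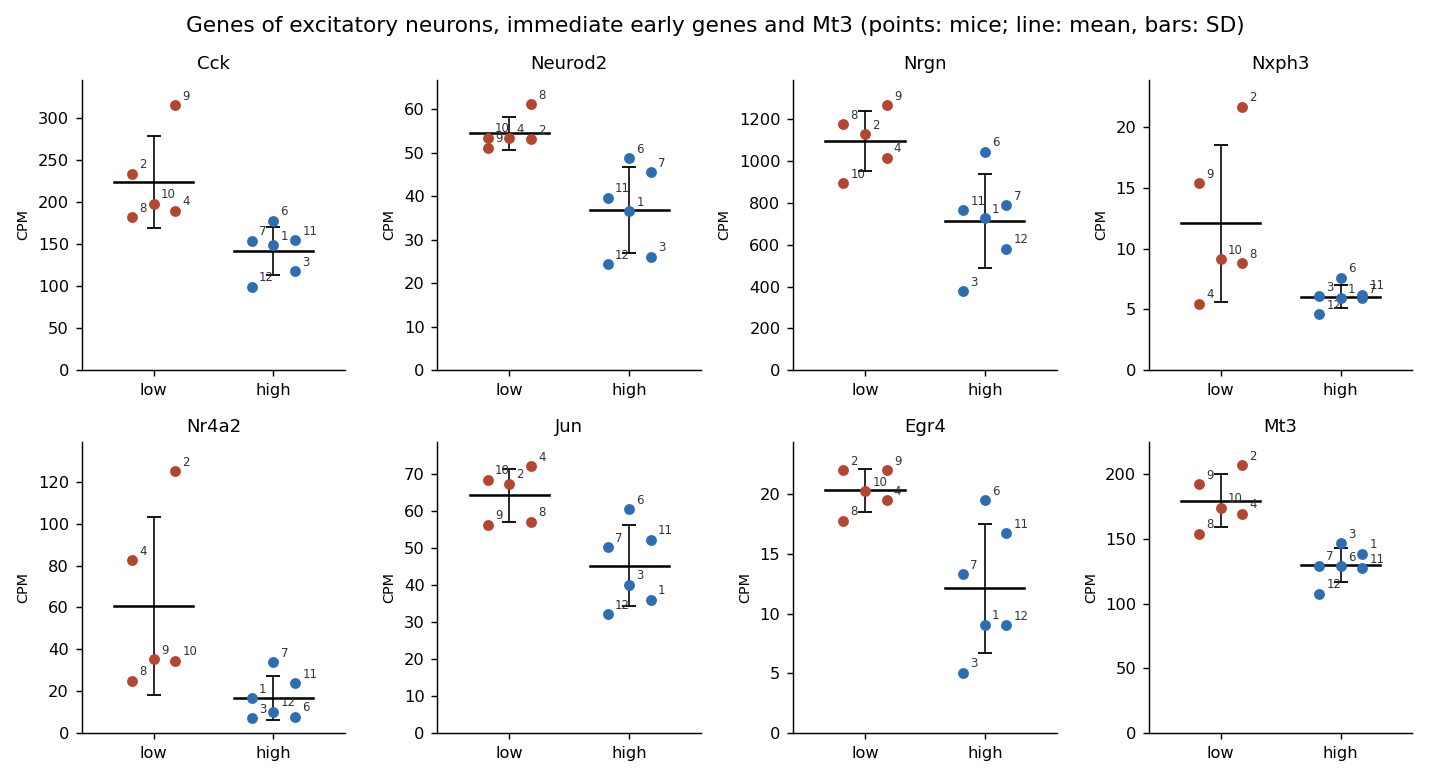
CPM (y axis, from 0) of genes of excitatory neurons (Cck, Neurod2, Nrgn and Nxph3), immediate early genes (Nr4a2, Jun and Egr4) and the metallothionein gene Mt3 in the low and high mice. Points are mice with their numbers, lines are means and bars are SD. Cck, Neurod2 and Mt3 do not overlap between the groups, and mice 2 and 4 stand above all others for Nr4a2.

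Stress hormone genes were close to even. Of 7 genes for CRF peptides and receptors, 0 had an unadjusted edgeR p under 0.05 in either direction and 0 were called by DESeq2, with a median log2 fold change of 0.02. Crh itself, the corticotropin-releasing peptide of the central nucleus, had 5.55, 5.28, 4.33, 5.44 and 7.08 CPM in the low mice and 4.26 to 6.31 CPM with a median of 5.74 in the high mice (0.02 ± 0.15). Its receptor gene Crhr1 had a log2 fold change of −0.05 ± 0.08. The 10 glucocorticoid receptors and targets also had 0 genes under that threshold by edgeR and 0 DESeq2 calls (median 0.05), with the glucocorticoid receptor gene Nr3c1 at −0.20 ± 0.11 (edgeR adjusted p = 0.606) and its target gene Fkbp5 at −0.05 ± 0.11.

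Among monoamine receptors, 3 of 13 serotonin receptor genes were lower at an unadjusted edgeR p under 0.05 (4.31% of all genes), namely Htr2c (−0.24 ± 0.09, edgeR adjusted p = 0.493), Htr7 (−0.32 ± 0.13, edgeR adjusted p = 0.509) and Htr1d (−0.83, edgeR adjusted p = 0.533). The median of the serotonin receptors was −0.23, and 0.01 with the predicted anxiety state as a factor. Htr2c, a receptor linked to anxiety-like behavior in rodents, had 106, 112, 111, 133 and 130 CPM in low mice 2, 4, 8, 9 and 10 and 119 to 162 CPM in the high mice. Of 9 adrenergic receptor genes, Adrb1 (0.33 ± 0.12, edgeR adjusted p = 0.465) was higher and Adra1a (−0.38, edgeR adjusted p = 0.512) lower. Of 5 gonadal steroid receptor and aromatase genes, all with lower estimates, 2 were under the threshold, among them the estrogen receptor gene Esr2 (−0.53 ± 0.25, edgeR adjusted p = 0.556), and Esr1 (−0.23 ± 0.30, edgeR adjusted p = 0.89) was not. In the endocannabinoid list of 6 genes and the oxytocin and vasopressin list of 5 genes, 0 genes had an unadjusted edgeR p under 0.05 and 0 were called by DESeq2.

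Genes of energy and protein production had many small differences to the higher side. Of 83 nuclear genes for oxidative phosphorylation subunits, 71 had higher estimates and 16 (19.3%) were higher at an unadjusted edgeR p under 0.05, against 4.6% of all genes and 6.14% of those with a mean of at least 1 CPM, with a median log2 fold change of 0.15. The lead member was Uqcrq, a subunit of complex III, with 87.9, 81.7, 87.8, 105 and 78.9 CPM in low mice 2, 4, 8, 9 and 10 and 53.8 to 85.0 CPM with a median of 62.2 in the high mice (0.48 ± 0.11, edgeR adjusted p = 0.402). High mouse 6 alone reached into the range of the low mice for Uqcrq. Of 82 cytosolic ribosomal protein genes, 67 had higher estimates and 11 (13.4%, against the same shares) were higher at that threshold (median 0.12), among them Rpl28 (0.36 ± 0.07, edgeR adjusted p = 0.342) and Rpl31 (0.43 ± 0.11, edgeR adjusted p = 0.402), whose groups did not overlap. Rpl28 overlaps the opposite-strand gene Ube2s, and ribosomal protein genes have many near-identical pseudogenes with which reads can be shared. All 13 mitochondrially encoded genes had higher estimates (median 0.12), with 0 at an unadjusted edgeR p under 0.05 and 0 DESeq2 calls.

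Single mice weighed on both nuclear lists. The count at an unadjusted p under 0.05 was 33 of the nuclear oxidative phosphorylation subunits without mouse 3 and 8 without mouse 8, and it was 9 without mouse 12. For the cytosolic ribosomal proteins it was 32 without mouse 3, 5 without mouse 8 and 4 without mouse 11 or mouse 12. With the predicted anxiety state as a factor the counts were 1 and 2, and with mouse 5 among the low mice 2 and 4. Their median GC contents were 50.3% and 50.9%, and with a GC offset the counts were 15 and 7.

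The remaining lists had few members under the threshold. Of 16 circadian clock genes, Npas2 was higher and Clock, Per3 and Nr1d2 were lower. Among 12 heat shock chaperones, Hspa1a (0.47 ± 0.15, edgeR adjusted p = 0.425) and Hspa1b (0.52 ± 0.22, edgeR adjusted p = 0.527), near-identical copies between which reads can be split, were higher and Hsp90b1 was lower. Of 18 cholesterol synthesis genes, only Fdft1 was under the threshold (0.16, edgeR adjusted p = 0.509), and of 10 interferon and MHC class I genes only Ifit3 (−0.34, edgeR adjusted p = 0.529).

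**Figure D4:**
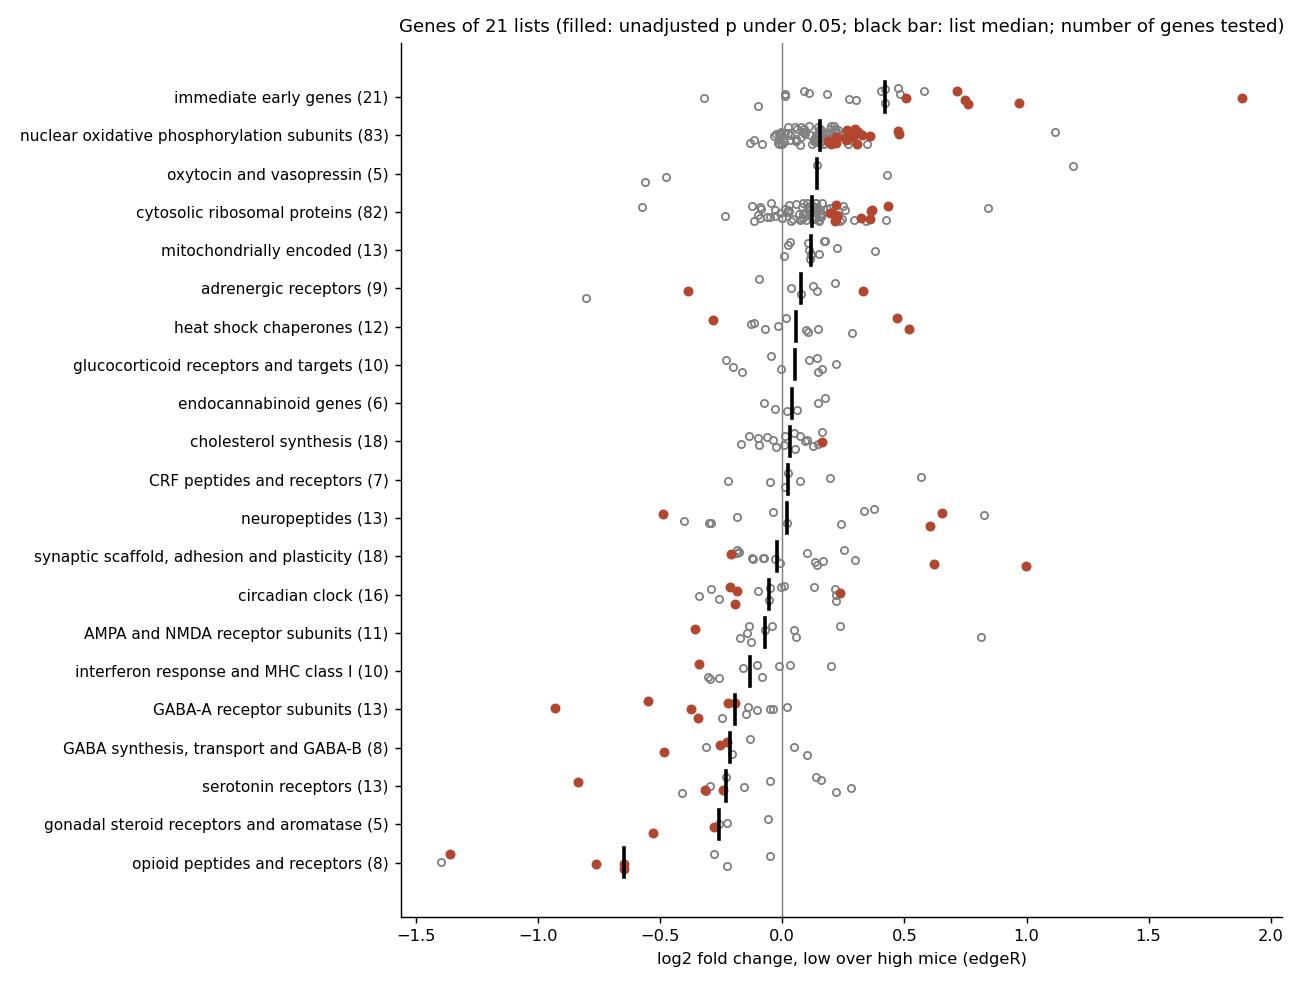
edgeR log2 fold change (x axis, low over high mice) of every tested gene of 21 pathway lists, ordered by median. Filled points have an unadjusted p under 0.05, open points do not, black bars are list medians, and the number of genes tested stands beside each name. Opioid genes have the lowest median (−0.65) and immediate early genes the highest (0.42), while most lists lie near 0.

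The 12 protein-coding genes of smallest p in each direction, with a mean of at least 1 CPM, were led on the lower side by Agps (2:75832177-75931350, plus strand), an enzyme of ether lipid synthesis. Agps had 28.5, 24.8, 25.1, 24.9 and 29.9 CPM in low mice 2, 4, 8, 9 and 10 and 32.2 to 45.8 CPM with a median of 39.6 in the high mice. That gap left no overlap, with a log2 fold change of −0.56 ± 0.09 (SE, edgeR adjusted p = 0.233). Sv2c (13:95954594-96132577, minus strand), a synaptic vesicle protein of the basal ganglia and of GABAergic neurons, had 50.7, 46.2, 43.1, 50.1 and 44.2 CPM in the low mice and 52.3 to 99.5 CPM with a median of 76.8 in the high mice (−0.72 ± 0.13, edgeR adjusted p = 0.233). Agtr2 (X:21484544-21489164, plus strand), the type 2 angiotensin receptor, had the steepest fold of the 12, with 1.51, 1.20, 2.35, 1.32 and 0.920 CPM in the low mice and 1.80 to 7.75 CPM with a median of 5.09 in the high mice (−1.77 ± 0.33, edgeR adjusted p = 0.297). Only low mouse 8 reached the lowest high mouse for Agtr2.

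The other 9 on the lower side were Dzank1, Vat1l, Amotl1, Rims3, Fam120c, Gpr165, Frmpd4, Gpam and Lmbrd2, with log2 fold changes from −0.67 (Lmbrd2) to −0.40 (Frmpd4). Rims3 belongs to the presynaptic active zone, Frmpd4 to the postsynaptic scaffold, and Gpam starts glycerolipid synthesis. Without mouse 11, edgeR called Dzank1, Sv2c and Vat1l, with adjusted p-values of 0.021, 0.021 and 0.038. Those 3 were the only calls among the 106 genes named by rule in 24 other edgeR fits.

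On the higher side the smallest p belonged to Nup214, a nuclear pore protein, with 50.5, 41.3, 39.6, 44.7 and 39.9 CPM in the low mice and 26.8 to 33.9 CPM with a median of 30.3 in the high mice (0.50 ± 0.09, edgeR adjusted p = 0.233). Next came D8Ertd738e (0.35 ± 0.07, adjusted p = 0.233 by edgeR) and Gfra4 (0.41 ± 0.08, adjusted p = 0.233 by edgeR), a receptor subunit for persephin, both without overlap. The order went on with Mt3, Rpl28, Nr2f6, Bola2, Poc1a, Usp50, Uqcrq, Pfn1 and Bmyc, with log2 fold changes from 0.36 (Rpl28) to 0.89 (Nr2f6). Nup214, Rpl28, Nr2f6, Bola2 and Usp50 each overlap an annotated gene on the opposite strand, as do Sv2c, Scand1 and Fdft1, so part of their reads could belong to the partner.

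Mt3 (8:94152607-94154146, plus strand), a metallothionein of brain that binds zinc and copper, had 207, 169, 154, 192 and 174 CPM in low mice 2, 4, 8, 9 and 10 and 108 to 147 CPM with a median of 129 in the high mice. With no overlap, its log2 fold change was 0.47 ± 0.09 (SE, edgeR adjusted p = 0.297). The adjusted p ran from 0.140 to 1 over the other edgeR fits and was 0.0043 by DESeq2. Its neighbors Mt2 (8:94172664-94173568) and Mt1 (8:94179082-94180327), named after their values were seen, were higher as well. Mt2 had 79.4, 66.1, 75.1, 65.4 and 69.2 CPM in the low mice and 43.0 to 62.9 CPM in the high mice, without overlap (0.39 ± 0.11, edgeR adjusted p = 0.402). Mt1 had 160, 126, 140, 127 and 114 CPM in the low mice and 82.6 to 130 CPM in the high mice (0.41 ± 0.13, edgeR adjusted p = 0.425). For each of the 3 metallothionein genes the unadjusted p was under 0.05 in all 24 other edgeR fits. That held for 23 of the 106 genes named by rule. The fits largely reuse the same mice and the genes were picked by their values, so it is not separate evidence.

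A list of 22 genes was taken from those the study names for its anxiety groups. Most were chosen by the study on these same libraries, and Esr1 and Apoe as nodes added from a database of interactions, so the direction of the list is not independent evidence. Of the 22, 9 were higher and 0 lower at an unadjusted edgeR p under 0.05, where 4.6% of all genes were higher and 4.31% lower, and the median log2 fold change was 0.54. Besides Egr4, Nrgn, Nxph3 and Hspa1a, they were Cltb (a clathrin light chain, 0.30 ± 0.09), Capn11 (3.27 ± 1.03), Scand1 (1.26 ± 0.43), Cacna1a (a P/Q-type calcium channel subunit, 0.77 ± 0.30) and Gnai2 (an inhibitory G protein subunit, 0.63 ± 0.28). Capn11, a calpain protease, had 10.6, 5.30, 7.23, 0.933 and 1.92 CPM in low mice 2, 4, 8, 9 and 10, while high mouse 6 (2.64 CPM) was above low mice 9 and 10 and the median high mouse had 0.162 CPM (edgeR adjusted p = 0.454). Of the other 13, estimates ran from −1.71 ± 0.95 (Kcnj13) to 1.98 ± 1.604 (Prl), and those of Rgs9 (−0.69 ± 0.38), Adgrl4 (−0.47 ± 0.32), Pomc (−0.28 ± 0.66) and Esr1 (−0.23 ± 0.30) were also below 0. For its own anxiety groups, the study reports Prl as lower and Adgrl4 and Pomc as higher with anxiety. The estimates here have the opposite sign, but none of them had an unadjusted edgeR p under 0.05, so they do not set a difference from the study. Pomc stood at a log2 CPM of 2.85 in high mouse 11 and at −0.17 to 0.43 in the other high mice. It reports Kcnj13 as lower, the same sign as here. Prl and Gh (1.90 ± 1.48) were at 31.9 and 19.9 CPM in low mouse 4 and under 1 CPM in the other 4 low mice. With the predicted anxiety state as a factor, 0 of the 22 had an unadjusted edgeR p under 0.05. That count was largely set by the choice of the list, as the study picked most of these genes for differing between those states.

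Some marker sums of cell types differed in mean between the groups, none of them at an adjusted p under 0.05. The summed inhibitory neuron markers averaged 618 ± 42.9 CPM in the low mice and 758 ± 97.5 CPM in the high mice (exact permutation p = 0.0195, adjusted p = 0.234 over 24 measures), with 3 of the 5 markers lower at an unadjusted edgeR p under 0.05. Most of that sum came from Gad1, Gad2 and Slc32a1, GABA genes already given above, so it is not separate evidence. Dlx1 had a higher estimate (0.15 ± 0.14). Central amygdala markers, of which Pdyn is one, averaged 284 ± 31.8 and 370 ± 74.8 CPM (exact permutation p = 0.0346, adjusted p = 0.277), all 6 with lower estimates. Without any single mouse but 3 or 11, neither this sum nor the next kept an unadjusted exact p under 0.05. Intercalated cell markers averaged 147 ± 8.39 and 196 ± 42.5 CPM (exact permutation p = 0.0498, adjusted p = 0.299), and their member Meis2 had 88.8 to 93.1 CPM in the low mice and 90.0 to 167 CPM in the high mice (−0.53 ± 0.15, edgeR adjusted p = 0.408). High mice 3 and 11 lay at the level of the low mice for the intercalated sum. Excitatory neuron markers averaged 1322 ± 212 and 1105 ± 181 CPM (exact permutation p = 0.108), and basolateral markers 358 ± 110 and 378 ± 37.4 CPM (exact permutation p = 0.671). Glial and vascular markers leaned lower as well. Estimates were lower for all 7 oligodendrocyte, all 8 microglial, 6 of 7 astrocyte and 7 of 8 endothelial markers. Of the endothelial markers, 3 were lower at an unadjusted edgeR p under 0.05, where 4.31% of all genes were. The astrocyte sum averaged 2561 ± 248 and 2989 ± 411 CPM (exact permutation p = 0.0823, adjusted p = 0.346). Of 6 general neuron markers, 4 had higher estimates.

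Signs of tissue beside the amygdala varied among the mice. Striatal neuron markers, all 9 with lower estimates, averaged 321 ± 101 CPM (225 to 435) in the low mice and 452 ± 189 CPM (242 to 768) in the high mice (exact permutation p = 0.193), high mouse 12 being the highest. With the striatal sum as a covariate, Pdyn (−1.01), Oprd1 (−0.57) and Gad2 (−0.45) kept an unadjusted p under 0.05, and Gad1 (−0.21) and Penk (−0.24) did not. Choroid plexus markers averaged 18.7 ± 5.42 and 29.0 ± 4.25 CPM (exact permutation p = 0.00866, adjusted p = 0.208), with 7 of 9 estimates lower. The thyroxine carrier gene Ttr had 1.28 to 2.48 CPM in the low mice and 1.02 to 5.58 CPM in the high mice. Most of that sum came from Prlr, Kl and Clic6 (means of 8.38, 5.45 and 4.97 CPM). Folr1, Aqp1, Kcne2 and Otx2 had means under 1 CPM, and Folr1 (0.29) and Aqp1 (0.04) had higher estimates. Whether the sum reflects choroid plexus tissue was not tested. Pituitary markers stood at 57.7 CPM in low mouse 4, of which Prl made up 31.9 and Gh 19.9 CPM, at 18.9 CPM in high mouse 11, and at 2.64 to 6.45 CPM in the other 9 mice. No adjusted p over the 24 measures was under 0.208, and the part of tissue composition in the gene differences, beyond the striatal covariate, was not tested.

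**Figure D5:**
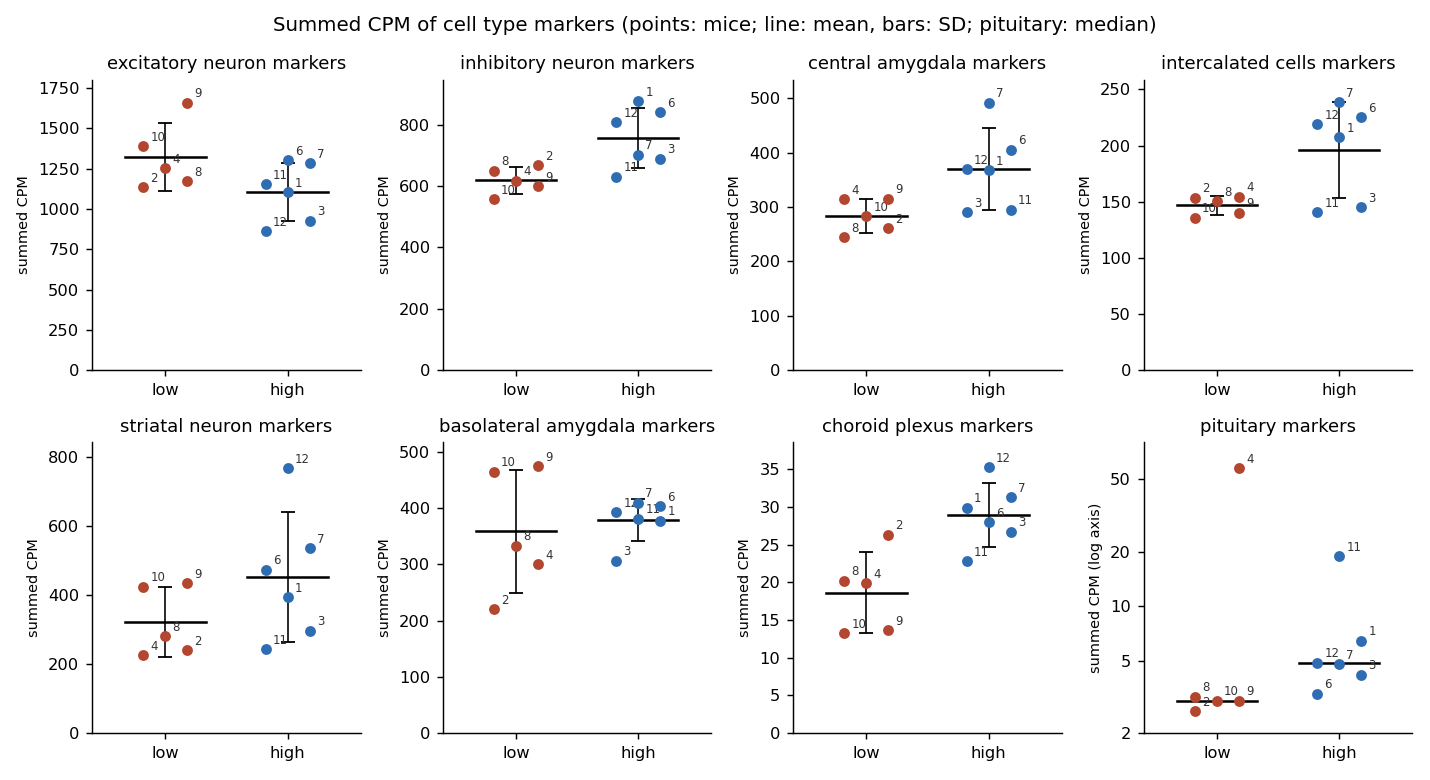
Summed CPM (y axis, log scale for pituitary only) of 8 marker lists in the low and high mice. Points are mice with their numbers, lines are means with SD bars, or medians for pituitary. Inhibitory, central, intercalated and choroid plexus sums have lower means in the low mice with overlap, and mouse 4 stands alone for pituitary markers (57.7 CPM).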

How the data were processed

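Amygdala mRNA of 12 mice was sequenced in a single NextSeq500 run from stranded TruSeq libraries. The authors trimmed reads with cutadapt, aligned them with STAR for quality checks, quantified transcripts with Salmon against mm10 and summed them to genes with tximport, and deposited estimated counts as whole numbers for 47729 genes, without normalization. Tool versions, annotation release and strand setting of the counting were not given in the sources used here. GENCODE M21 (GRCm38) had an entry for 47310 genes (99.1%).

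Groups were set by percent distance in light (limit 27%, mouse 5 left out). The members and gene lists were chosen with earlier results of these data known. The deposited estimated counts were tested with edgeR 4.0.16 (R 4.3.3; quasi-likelihood F-test, robust, TMM factors, at least 10 reads in total over 11 mice, Benjamini-Hochberg adjustment), with DESeq2 1.42.0 (Wald test) as an alternative. CPM used the TMM factors, and log2 CPM a prior count of 2. Behavior, principal component and marker values were compared with two-sided exact permutation tests over all 462 arrangements of the mice (210 at 3 min) using Python 3.11.15, numpy 2.4.6, scipy 1.17.1 and pandas 2.3.3, and figures were drawn with matplotlib 3.10.9. The procedures were tested on simulated data. Named genes were the 12 protein-coding genes of smallest p in each direction with a mean of at least 1 CPM, the 3 of smallest p in each list at that level, the genes that the study names for its anxiety groups, and list or marker members without overlap, 106 in all. Promoter sequences came from RefSeq (GRCm38.p6).

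Each mouse is a separate animal, and no pair of libraries was alike within sampling noise (55 pairs, lowest mean chi-square per gene 19.3). p-values cover the spread among these mice. Alternatives covered size factors, filters, test, covariates, predicted anxiety state, distance as a number, other limits, mouse 5 and each mouse left out; the GC offset and the striatal covariate were chosen after seeing the data. Some single genes of the lists are not reported here.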

Additional observations from a re-analysis of the deposited data

Results flagged for a closer look

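In 24 of 274 groups of values (8.76%), the highest or lowest mouse stood apart from the rest of its group by Dixon's test at the 95% level, where chance gives about 1 in 20. High mouse 3 stood apart for the box:zone ratio at 5 min (2.12, the others 0.688 to 1.15) and at 10 min (2.62, the others 0.668 to 1.39), and for a low sum of basolateral amygdala markers (306 CPM, the others 378 to 409).

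High mouse 6 had the highest sum of hypothalamic neuron markers (23.8 CPM, the others 0.981 to 5.45). On the log2 CPM scale it was also highest among the high mice for Capn11 (1.43), E2f3 (6.33), Gnai2 (8.07), Grin2b (9.05) and Uqcrq (6.41), and lowest for Gh (−4.24). High mouse 7 stood apart for oligodendrocyte precursor markers (178 CPM, the others 134 to 145). High mouse 12 did so for mural markers (176 CPM, the others 111 to 133), and on the log2 CPM scale for Crhbp (4.32, lowest) and Per3 (5.38, highest).

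Pituitary markers stood apart in low mouse 4 (57.7 CPM, the others 2.64 to 3.17) and in high mouse 11 (18.9 CPM, the others 3.29 to 6.45). On the log2 CPM scale, high mouse 11 was also highest for Pomc (2.85) and lowest for Dzank1 (7.48), and low mouse 4 was highest for Tsc22d3 (5.56).

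Among the low mice, mouse 2 stood apart for Bst2 (0.18, lowest) and Ntrk2 (8.97, highest), mouse 8 for D8Ertd738e (5.40, lowest) and Neurod2 (5.94, highest) and mouse 10 for Bola2 (4.47, lowest), all on the log2 CPM scale.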

How the results depend on the processing

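edgeR made 0 calls under every setting but 4 of those that left out a mouse, where it made 0 to 3 (1 without mouse 9, 10 or 12 and 3 without mouse 11), while DESeq2 made 161. The 2403 genes at an unadjusted p under 0.05 became 859 with the predicted anxiety state as a factor, 1565 with distance as a number, 1336 between the extremes under 20% and over 34%, and 1455 with mouse 5 in the low group. The 293 genes without overlap became 61 with mouse 5 included and 349 to 707 with a mouse left out, 707 without mouse 6, as fewer mice overlap less. The causes of the other changes were not tested.

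Open-arm time differed by −14.9 to −10.4 percentage points with a mouse left out and had an exact permutation p above 0.05 without mouse 2, 6, 9 or 10. With a mouse left out, the box:zone difference ran from 0.242 to 0.589 at 3 min (unadjusted exact p under 0.05 without mouse 3), from −0.120 to 0.207 at 5 min (reversed without mouse 6, 7, 8, 9, 10 or 12, and −0.0388 with mouse 5) and from −0.261 to 0.145 at 10 min (reversed without mouse 2 or 3). PC2 differed by 15.1 with genes of at least 1 CPM (exact permutation p = 0.0498) and by 10.9 to 19.7 with a mouse left out (unadjusted exact p under 0.05 without mouse 4), PC4 by −0.12 to 9.48 (reversed without mouse 9) and PC5 by −15.7 to −6.65 (unadjusted exact p under 0.05 without mouse 9). The total count differed by 3218900 to 5395930 (unadjusted exact p under 0.05 without mouse 7), and the genes with a read by −289.5 with mouse 5. With ranks in place of values, the differences in mean rank were −4.03 for central amygdala (exact permutation p = 0.0519), −3.30 for intercalated cell (exact permutation p = 0.126) and −3.30 for pituitary markers, and 1.10 for hypothalamic and ependymal markers. Thalamic markers differed by 0.166 CPM with mouse 5. With a mouse left out, the marker sums differed by −49.0 to 14.6 CPM (basolateral, reversed without mouse 2), −102 to −62.1 (central) and −60.2 to −40.5 (intercalated), both with an unadjusted exact p above 0.05 unless the mouse left out was 3 or 11, −2.56 to 1.99 (hypothalamic, reversed without mouse 6), −1.34 to 0.606 (thalamic, reversed without mouse 1, 8 or 9), −22.9 to −9.08 (oligodendrocyte precursor, unadjusted exact p under 0.05 without mouse 4), −1.78 to 0.622 (ependymal, reversed without mouse 3), −4.12 to 9.65 (pituitary, reversed without mouse 4) and −41.3 to 207 (meningeal fibroblast, reversed without mouse 10). With 5 and 6 mice, precision was limited by the number of animals.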
